A study of Mus musculus with 6 samples.

Results

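Cell cycle genes were examined in sorted intestinal cells of mice, as a set of 38 named genes that runs from the G1 cyclins to the mitotic spindle. Each gene was represented by 1 probe set, the one with the largest 6-array mean among those annotated to it alone. In this way 37 of the 38 genes had a value among the 18193 genes measured, and Ccnb1 is not analysed here. Both groups of cells were profiled on 6 Affymetrix arrays. The first was CCK-EGFP cells, 3 samples taken by their enhanced green fluorescent protein (EGFP). The other was non-EGFP cells, 3 samples of an equal number of intestinal cells without fluorescence. Both groups came from adult CCK-EGFP transgenic mice on the Swiss Webster background, so the transgene was carried by all 6 samples. The labels name neither the sequence that drives EGFP nor the number of animals behind a sample, and do not say that samples of one group came from separate mice. The spread behind the p-values below is thus that between samples, and it may be technical.

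Cells divide by passing through G1, DNA synthesis (S), G2 and mitosis. Cyclin D with Cdk4 or Cdk6, and then cyclin E with Cdk2, inactivate the retinoblastoma proteins and release the E2F factors, which drive the genes of DNA replication. Genes of G2 and mitosis are switched on later by the MuvB complex with B-Myb and Foxm1, and the DREAM complex, which shares the MuvB core, holds many cell cycle genes down in resting cells. In the intestine, division takes place in the crypts, while most enteroendocrine cells, the hormone cells of the epithelium, are regarded as having left the cycle. Non-EGFP cells are a mixture that can hold enterocytes, crypt cells and blood-derived cells.

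Promoters of 4 genes described below are shown first, as RefSeq gives them on GRCm38.p6. Each runs from 250 bases before the annotated start to 50 bases after it. Cdt1 lies at chr8:122567765-122568064 on the plus strand and Cdc6 at chr11:98907901-98908200 on the plus strand, and both encode replication licensing factors. Ube2c lies at chr2:164769679-164769978 on the plus strand and encodes the ubiquitin-conjugating enzyme of the anaphase-promoting complex. Ccnb2 lies at chr9:70421505-70421804 on the minus strand and encodes cyclin B2. Each is written 5′ to 3′ on the strand of its gene, and capitals mark every match to the words searched on either strand. These were TTTGAA and TTCGAA for the cell cycle homology region (CHR) bound by MuvB, CCAAT for the box bound by NF-Y, and TTTCCCGC, TTTGGCGC, TTTCGCGC and TTTGCCGC for E2F sites.
Cdt1: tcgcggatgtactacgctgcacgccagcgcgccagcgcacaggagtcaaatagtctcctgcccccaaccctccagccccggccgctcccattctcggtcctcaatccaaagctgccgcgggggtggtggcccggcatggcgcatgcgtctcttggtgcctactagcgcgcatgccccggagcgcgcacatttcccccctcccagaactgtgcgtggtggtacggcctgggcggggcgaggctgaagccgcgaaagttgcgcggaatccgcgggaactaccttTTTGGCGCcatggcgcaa
Cdc6: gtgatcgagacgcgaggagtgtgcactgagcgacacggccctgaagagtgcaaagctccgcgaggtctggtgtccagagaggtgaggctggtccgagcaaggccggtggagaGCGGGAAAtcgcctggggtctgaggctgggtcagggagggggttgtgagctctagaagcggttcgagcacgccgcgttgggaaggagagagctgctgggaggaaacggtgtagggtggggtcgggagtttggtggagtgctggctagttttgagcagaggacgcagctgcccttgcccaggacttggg
Ube2c: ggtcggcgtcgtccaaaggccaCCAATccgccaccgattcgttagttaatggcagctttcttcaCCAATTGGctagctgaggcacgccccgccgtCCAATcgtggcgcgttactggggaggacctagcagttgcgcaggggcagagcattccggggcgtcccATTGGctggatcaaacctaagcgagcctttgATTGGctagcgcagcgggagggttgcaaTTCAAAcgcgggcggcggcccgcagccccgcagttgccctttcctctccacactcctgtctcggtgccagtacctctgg
Ccnb2: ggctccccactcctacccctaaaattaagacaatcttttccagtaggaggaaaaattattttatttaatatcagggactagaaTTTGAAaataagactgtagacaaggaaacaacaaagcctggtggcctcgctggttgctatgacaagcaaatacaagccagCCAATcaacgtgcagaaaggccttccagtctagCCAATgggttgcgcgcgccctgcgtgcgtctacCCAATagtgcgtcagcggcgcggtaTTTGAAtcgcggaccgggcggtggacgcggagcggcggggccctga

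The Cdt1 promoter held 1 E2F word and the Cdc6 promoter 1 E2F word, on opposite strands, and neither held a CHR or CCAAT word. The Ube2c promoter held 1 CHR word and 6 CCAAT words, of which a pair overlaps on opposite strands. The Ccnb2 promoter held 2 CHR words and 3 CCAAT words and no E2F word. No match of one motif overlapped a match of another in these windows. Of the 37 measured genes, 30 had a window in the promoter table, and Ccnd2 had none. With a gene counted if any of its windows matched, an E2F word was found in 8 of the 30 (26.7%), against 2.26% of all 32851 windows. A CHR word was found in 14 (46.7%, against 19.2%) and a CCAAT word in 23 (76.7%, against 37.4%). All 14 genes with a CHR word also held a CCAAT word, and 7.52% of all windows held both. A match is a description of letters, not a measured binding site.

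Values are log2 RMA intensities, on which 1 unit is a doubling, and differences are CCK-EGFP minus non-EGFP. The background level was 4.60, the 95th percentile of 71 olfactory and vomeronasal receptor genes. Sorting was checked on hormone cell genes. Cck was 13.16 ± 0.32 in CCK-EGFP cells, against 8.63 ± 0.27 in the non-EGFP group (SD, n = 3 each; limma adjusted p = 0.000192), and 6 of 6 enteroendocrine markers rose. Enterocyte markers, 7 in number, averaged 12.90 to 13.56 on CCK-EGFP arrays, against 13.79 to 13.84 on non-EGFP arrays. Enterocyte transcripts were thus abundant in both groups. Array medians were 5.66 to 5.72 for CCK-EGFP, against 5.37 to 5.55 for non-EGFP. The 3′ minus 5′ signal of the Pcx control was 2.36 to 3.07 for CCK-EGFP, against 4.26 to 4.38 for non-EGFP. That of Tfrc ran the other way, at 2.89 to 3.76 for CCK-EGFP, against 1.17 to 3.05 for non-EGFP with replicate 1 lowest, and those of Actb and Gapdh overlapped. Their part in the results was not tested.

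Of the 37 cell cycle genes, cyclin D2 (Ccnd2) rose in CCK-EGFP cells, while the licensing factor Cdt1 and the mitotic ubiquitin enzyme Ube2c fell. The other 34 did not pass the test (limma over all genes without a block, adjusted p under 0.05). The 3 calls made up 8.11% of the genes, against 24.1% of all genes tested (14.0% higher and 10.2% lower). In this fit the share called was below that of all genes. At an unadjusted p under 0.05 it held 5 cell cycle genes (13.5%), against 40.7% of all genes. With the replicate number as a block, described below, the share called was instead 24.3%, against 21.3% of all genes. Lower calls were then 21.6%, against 8.43%. In a bulk sample, fewer cells of a type and less RNA per cell cannot be told apart.

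The median difference over the 37 genes was -0.64, against -0.17 over all genes and 0.05 over genes with means above the background level. Differences were negative for 27 genes and positive for 10, so that 73.0% lay below 0, against 58.3% of all genes. The median within-group SD of the cell cycle genes was 0.68 for CCK-EGFP and 0.73 for non-EGFP, while over all genes it was 0.24 for CCK-EGFP and 0.35 for non-EGFP. The set was therefore more variable between arrays of one group than genes in general. For 25 of the 34 genes that did not pass, the 95% confidence interval of the difference included -1, a level 1 log2 unit lower in CCK-EGFP cells. Means of 34 genes lay above the background level, and 27 genes were above it on all 6 arrays. Bub1, Cenpf and Hmmr had means below it.

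**Figure D1:**
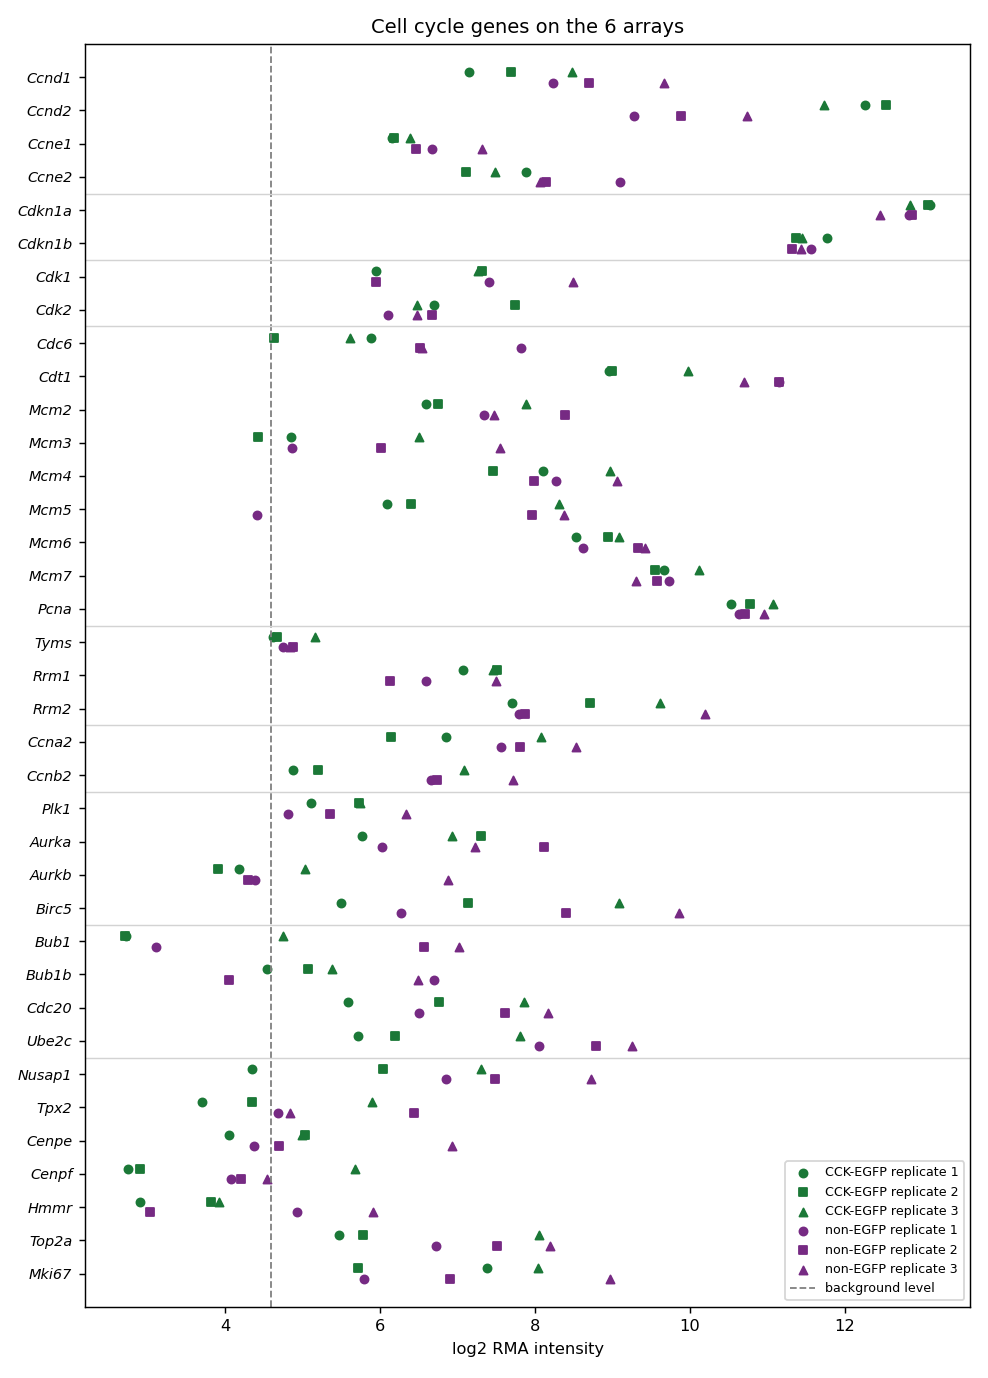
Log2 RMA intensity (x axis) of the 37 cell cycle genes (rows, grouped by role) on the 6 arrays, with CCK-EGFP in green above non-EGFP in purple and a marker shape for each replicate number. The dashed line is the background level of 4.60. Ccnd2 lies to the right and Cdt1 and Ube2c to the left in CCK-EGFP cells, without overlap of the groups.

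Each group has arrays numbered 1 to 3, and the labels do not explain the numbers. Arrays of the same number deviated together from their group means over all 18193 genes (Pearson r = 0.270, 0.159 and 0.219 across genes, which are not independent replicates). Over the 37 cell cycle genes alone the values were 0.477, -0.138 and 0.374. With the replicate number as a block in limma, 1 cell cycle gene was higher and 8 were lower in CCK-EGFP cells. These 9 calls made up 24.3% of the genes, against 21.3% of all genes (12.9% higher and 8.43% lower). The share of lower calls was 21.6%. The 3 calls made without the block were among them, and the 6 added genes were Ccnd1, Ccne2, Cdc6, Ccnb2, Birc5 and Nusap1. Compared within each number, 18 genes (48.6%, against 38.6% of all genes) were lower in CCK-EGFP cells in all 3 pairs. Another 3 were higher in all 3 pairs (against 27.9%), namely Ccnd2, Cdkn1a and Cdkn1b, and 16 were mixed. The groups did not overlap for 5 lower genes (Ccne1, Ccne2, Cdc6, Cdt1 and Ube2c), against 28.1% of all genes, and for 1 higher gene (Ccnd2), against 21.8%. The median differences within the pairs were -0.38, -0.81 and -0.57.

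**Figure D2:**
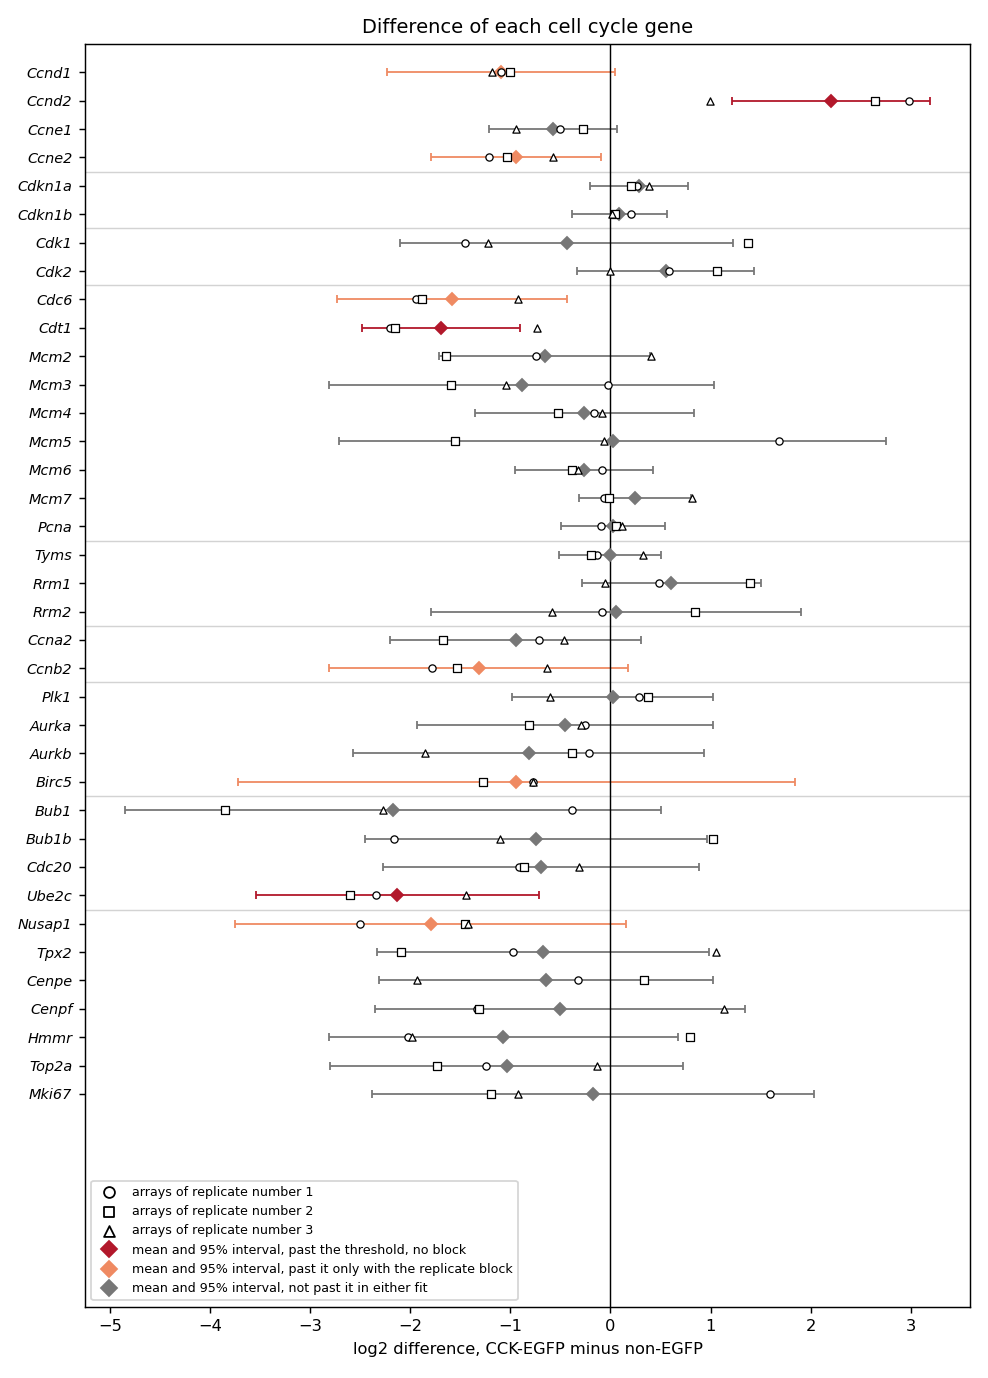
Log2 difference, CCK-EGFP minus non-EGFP (x axis), for each of the 37 cell cycle genes (rows). Diamonds with bars are the mean difference and its 95% confidence interval without the block, and open symbols are the differences within each replicate number. Red marks Ccnd2, Cdt1 and Ube2c, past the threshold, and orange the 6 genes past it only with the replicate block.

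Among the D and E cyclins, which carry cells through G1, 1 of 4 passed without the block, near the share of 24.1% of all genes. With the block 3 of the 4 passed, against 21.3% of all genes. Ccnd2 encodes cyclin D2, a partner of Cdk4 and Cdk6. It read 12.26, 12.53 and 11.73 on CCK-EGFP replicates 1 to 3, against 9.28, 9.89 and 10.74 on non-EGFP replicates 1 to 3. All CCK-EGFP arrays lay above all non-EGFP arrays, with the narrowest gap in replicate 3. The means were 12.18 ± 0.40 for CCK-EGFP and 9.97 ± 0.74 for non-EGFP (SD, n = 3 each), a difference of 2.20 (SE 0.41, 4.61-fold higher, limma adjusted p = 0.0132). Within replicate numbers it was 2.98, 2.64 and 0.99. All 7 probe sets of Ccnd2 had positive differences, of 0.86 to 2.31. Its call ended without CCK-EGFP replicate 1 (limma adjusted p = 0.0502) or CCK-EGFP replicate 2 (0.0565).

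Ccnd1 encodes cyclin D1, another Cdk4 and Cdk6 partner and a target of Wnt signalling. It read 7.15, 7.70 and 8.48 in CCK-EGFP cells, against 8.24, 8.70 and 9.67 in non-EGFP cells. The groups overlapped, while each CCK-EGFP array was below the non-EGFP array of its number, with differences of -1.09, -1.0 and -1.19. The difference of -1.09 (SE 0.48) did not pass without the block (limma adjusted p = 0.134) and passed with it (limma adjusted p = 0.0241). Its 3 probe sets gave -1.60 to -0.17. Ccne2, cyclin E2, which activates Cdk2 at the start of S phase, read 7.89, 7.11 and 7.49 in CCK-EGFP cells, against 9.11, 8.15 and 8.06 in non-EGFP cells. The groups did not overlap, and its difference of -0.94 passed only with the block (limma adjusted p = 0.0473, against 0.0978 without). Cyclin E1 (Ccne1) read 6.16, 6.18 and 6.38 in CCK-EGFP cells, against 6.67, 6.46 and 7.32 in non-EGFP cells, a difference of -0.57 that passed in neither fit (limma adjusted p = 0.153 without the block).

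Of the genes that hold cyclin-dependent kinases in check, Cdkn1a and Cdkn1b are in the set, and neither passed in either fit. Cdkn1a, which encodes p21, was 13.01 ± 0.15 for CCK-EGFP and 12.72 ± 0.23 for non-EGFP (SD, n = 3 each), a difference of 0.29 (95% interval -0.20 to 0.77, limma adjusted p = 0.313). Cdkn1b, which encodes p27, read 11.77, 11.37 and 11.45 in CCK-EGFP cells, against 11.57, 11.32 and 11.44 in non-EGFP cells. Its difference was 0.09 (95% interval -0.38 to 0.56, limma adjusted p = 0.747). The intervals of both inhibitors left room for neither a doubling nor a halving. Cdk2, the partner of cyclins E and A, differed by 0.55 (limma adjusted p = 0.29), with 6.69, 7.74 and 6.48 in CCK-EGFP cells, against 6.10, 6.67 and 6.48 in non-EGFP cells.

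Licensing loads the Mcm helicase onto replication origins with the help of Cdc6 and Cdt1. Cdt1, whose promoter with its E2F word is printed above, read 8.95, 8.99 and 9.98 in CCK-EGFP cells, against 11.16, 11.15 and 10.71 in non-EGFP cells. The groups did not overlap and came closest in replicate 3. The means were 9.31 ± 0.58 for CCK-EGFP and 11.00 ± 0.26 for non-EGFP (SD, n = 3 each), a difference of -1.70 (SE 0.33, 3.24-fold lower, limma adjusted p = 0.0149). All 3 probe sets had negative differences, of -2.25 to -0.54. The call ended without CCK-EGFP replicate 1 (limma adjusted p = 0.0556) or CCK-EGFP replicate 2 (0.0619).

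Cdc6 read 5.88, 4.64 and 5.61 in CCK-EGFP cells, against 7.83, 6.52 and 6.54 in non-EGFP cells. The groups did not overlap, and the within-number differences were -1.94, -1.88 and -0.93. The difference of -1.58 (SE 0.48, 3.0-fold) missed the threshold without the block (limma adjusted p = 0.0556) and passed with it (0.0273). Thus both licensing factors lay lower in CCK-EGFP cells, 1 in both fits and 1 with the block alone.

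The helicase subunits themselves did not pass in either fit. Mcm2 to Mcm7, which form the ring that unwinds DNA at the fork, had differences of -0.89 (Mcm3) to 0.24 (Mcm7), with limma adjusted p of 0.289 to 0.991. Mcm5 had the widest interval, -2.71 to 2.75 around 0.02, and read 6.09, 6.41 and 8.32 in CCK-EGFP cells, against 4.41, 7.96 and 8.38 in non-EGFP cells. The probe sets of all 6 Mcm genes carry a suffix (x or s) that marks possible cross-matching, as do those of Rrm2, Ccne1, Cdc20 and Aurkb. Other probe sets of Mcm5 gave -0.40 and -0.65, the latter under the background level on all 6 arrays (3.13 to 4.58). Pcna, the sliding clamp of the DNA polymerases, was 10.80 ± 0.27 for CCK-EGFP and 10.77 ± 0.17 for non-EGFP (SD, n = 3 each). Its difference of 0.03 had a 95% interval of -0.49 to 0.54 (limma adjusted p = 0.938), which excludes a doubling and a halving.

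Genes of nucleotide synthesis gave no call. Rrm1, the large subunit of ribonucleotide reductase, differed by 0.61 (limma adjusted p = 0.254), and Rrm2, its S phase subunit, by 0.06 (limma adjusted p = 0.961). Rrm2 read 7.70, 8.71 and 9.61 in CCK-EGFP cells, against 7.79, 7.87 and 10.20 in non-EGFP cells, so that replicate 3 was high in both groups. Its 3 probe sets ranged from -1.10 to 0.06, and their mean was -0.54. Tyms, thymidylate synthase, read 4.62 to 5.16 for CCK-EGFP and 4.76 to 4.87 for non-EGFP, close to the background level. None of the 3 passed with the block.

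Mitotic genes were the largest group, with 18 measured genes including Cdk1. Their differences were negative for 17 of 18, against 58.3% of all genes, with a median of -0.78, against -0.17. Over only those genes with means above the background level the median was 0.05, so these shares depend on signal level. Means of 15 of the 18 mitotic genes lay above that level, and 10 of the 18 were above it on all 6 arrays. In all 3 pairs 10 were lower in CCK-EGFP cells, against 38.6% of all genes. Ube2c alone passed without the block, and 4 passed with it (Ube2c, Ccnb2, Birc5 and Nusap1), all lower. Of all genes, 10.2% were called lower without the block and 8.43% with it. Ube2c works with the anaphase-promoting complex to mark cyclin B and securin for destruction. It read 5.71, 6.19 and 7.81 in CCK-EGFP cells, against 8.05, 8.79 and 9.25 in non-EGFP cells. The groups did not overlap, and CCK-EGFP replicate 3 came closest to the non-EGFP arrays. The means were 6.57 ± 1.10 for CCK-EGFP and 8.70 ± 0.61 for non-EGFP (SD, n = 3 each), a difference of -2.13 (SE 0.59, 4.37-fold lower, limma adjusted p = 0.0439, and 0.0163 with the block). This call rests on 1 probe set. Without CCK-EGFP replicate 3 its limma adjusted p was 0.00957, and leaving out any of the remaining 5 arrays in turn ended the call (up to 0.136).

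Ccnb2, which activates Cdk1 for entry into mitosis, read 4.87, 5.21 and 7.08 in CCK-EGFP cells, against 6.66, 6.74 and 7.72 in non-EGFP cells. Replicate 3 was the highest in both groups, and the groups overlapped through it. The difference was -1.32 (SE 0.62, limma adjusted p = 0.159), and with the block the SE was 0.29 (limma adjusted p = 0.0425). Ccna2, the cyclin of S phase and G2, differed by -0.95 (limma adjusted p = 0.214, and 0.0882 with the block). Cdk1, the kinase both cyclins activate, read 5.95, 7.32 and 7.26 in CCK-EGFP cells, against 7.41, 5.95 and 8.49 in non-EGFP cells. Its pair differences of -1.46, 1.37 and -1.23 changed sign, and the mean of -0.44 had a 95% interval of -2.10 to 1.22 (limma adjusted p = 0.649).

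Birc5 encodes survivin, a subunit of the chromosomal passenger complex. It read 5.50, 7.13 and 9.08 in CCK-EGFP cells, against 6.28, 8.40 and 9.86 in non-EGFP cells. Within each group the arrays spanned over 3 log2 units, while the pair differences were -0.77, -1.27 and -0.78. The difference of -0.94 had an SE of 1.16 without the block (limma adjusted p = 0.555) and 0.21 with it (limma adjusted p = 0.0433). Aurkb, the kinase of the same complex, differed by -0.82 (limma adjusted p = 0.416), with a CCK-EGFP mean below the background level. Aurka, a centrosome kinase, differed by -0.45 (limma adjusted p = 0.594), and Plk1, the polo-like kinase of mitotic entry, by 0.02 (limma adjusted p = 0.975). None of these kinases passed in either fit.

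Spindle checkpoint genes gave wide intervals. Bub1, a checkpoint kinase, read 2.72, 2.71 and 4.75 in CCK-EGFP cells, against 3.11, 6.57 and 7.02 in non-EGFP cells. Its difference of -2.17 (SE 1.11) did not pass in either fit (limma adjusted p = 0.187, and 0.0863 with the block). Bub1b, which encodes BubR1, differed by -0.75 (limma adjusted p = 0.446) with pairs of mixed sign. Cdc20, the activator of the anaphase-promoting complex that the checkpoint restrains, read 5.59, 6.76 and 7.86 in CCK-EGFP cells, against 6.51, 7.62 and 8.17 in non-EGFP cells. All 3 pairs were lower in CCK-EGFP cells, and its difference of -0.69 did not pass (limma adjusted p = 0.444, and 0.0866 with the block).

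Among genes of the spindle and chromosomes, Nusap1, which encodes a microtubule-binding spindle protein, read 4.35, 6.03 and 7.30 in CCK-EGFP cells, against 6.85, 7.49 and 8.73 in non-EGFP cells. The pair differences were -2.51, -1.46 and -1.43, and the mean difference of -1.80 passed with the block (limma adjusted p = 0.0235) and not without it (0.147). Top2a, the topoisomerase that untangles sister chromatids, read 5.48, 5.78 and 8.06 in CCK-EGFP cells, against 6.72, 7.51 and 8.19 in non-EGFP cells. Its difference of -1.04 did not pass in either fit (limma adjusted p = 0.314 without the block). Tpx2, an activator of Aurora A, Cenpe, a kinetochore motor, Cenpf, a kinetochore protein, and Hmmr, a spindle protein, had differences of -1.07 to -0.51, and none passed in either fit.

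Mki67 encodes Ki-67, the standard marker of dividing cells. It read 7.38, 5.72 and 8.04 in CCK-EGFP cells, against 5.79, 6.91 and 8.97 in non-EGFP cells. The groups overlapped fully and the pair differences of 1.59, -1.19 and -0.93 changed sign. With 7.05 ± 1.20 for CCK-EGFP and 7.22 ± 1.61 for non-EGFP (SD, n = 3 each), the difference of -0.17 had a 95% interval of -2.39 to 2.04 (limma adjusted p = 0.896). These arrays therefore set no narrow limit on Mki67 in either direction.

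Replicate 3 stood apart for the cell cycle genes, and it was singled out after the values were seen. The 37 genes averaged 6.52, 6.80 and 7.66 in CCK-EGFP cells, against 7.05, 7.42 and 8.17 in non-EGFP cells. Replicate 3 was the highest of its group in both groups for 21 of the 37 genes (56.8%), against 11.5% of all genes. Number 2 was the highest in both for 2 genes (against 14.4%) and number 1 for 3 genes (against 14.7%). The pattern was shared by the mitotic genes, 13 of 18, and by 6 of 12 replication genes. Mitotic means were 4.86, 5.39 and 6.61 in CCK-EGFP cells, against 5.83, 6.33 and 7.45 in non-EGFP cells. Pair differences of those means were alike, at -0.97, -0.94 and -0.84. CCK-EGFP replicate 3, at 6.61, was above non-EGFP replicates 1 and 2.

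**Figure D3:**
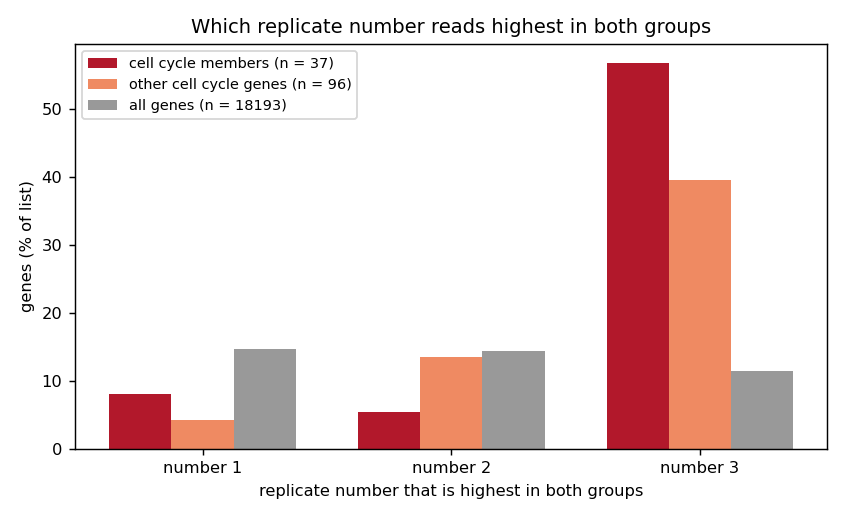
Share of genes (y axis, percent of the list) for which a replicate number was the highest of its group in both CCK-EGFP and non-EGFP cells (x axis), for the 37 cell cycle genes, 96 other cell cycle genes and all 18193 genes. Number 3 holds 56.8% of the 37 genes, 39.6% of the 96 and 11.5% of all genes.

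Markers of white blood cells were high on the same arrays. The 8 measured T and NK lymphocyte markers averaged 9.45, 10.42 and 11.65 in CCK-EGFP cells, against 10.15, 10.64 and 11.48 in non-EGFP cells, and replicate 3 was the highest in both groups for 8 of 8. Cd3e, a chain of the T cell receptor complex, read 10.12, 10.70 and 11.39 in CCK-EGFP cells, against 10.99, 10.93 and 11.71 in non-EGFP cells. None of the 8 passed the test between groups, and all had means above the background level. The 6 measured B and plasma cell markers averaged 6.88, 7.48 and 9.56 in CCK-EGFP cells, against 7.84, 7.56 and 8.61 in non-EGFP cells, and the 7 myeloid markers 5.78, 6.66 and 7.36 in CCK-EGFP cells, against 7.47, 7.04 and 7.65 in non-EGFP cells. None of these passed without the block, and with it the myeloid lysozyme gene Lyz2, named after its value was seen, was lower in CCK-EGFP cells (difference -1.70, limma adjusted p = 0.0253, against 0.0861 without). The pan-leukocyte gene Ptprc read 9.0, 9.19 and 10.93 in CCK-EGFP cells, against 9.41, 9.77 and 10.48 in non-EGFP cells, and the B cell gene Cd79a 6.10, 5.78 and 8.08 in CCK-EGFP cells, against 7.18, 6.53 and 7.38 in non-EGFP cells. Enterocyte markers averaged 12.94, 12.90 and 13.56 in CCK-EGFP cells, against 13.84, 13.81 and 13.79 in non-EGFP cells, so that the mean difference was -0.90, -0.92 and -0.24 within numbers 1 to 3. The mean difference of the 37 cell cycle genes was -0.53, -0.62 and -0.50 within numbers 1 to 3. By medians, the differences within numbers 1 to 3 were -0.29, -0.45 and -0.20 for enterocyte markers. The cell cycle medians were -0.38, -0.81 and -0.57. Differences of Ccnd2, Cdt1, Cdc6 and Ube2c were closest to 0 in number 3. Those of Ccnd1 (-1.09, -1.0 and -1.19) and Ccne1 (-0.51, -0.28 and -0.94) were farthest from 0 there. The part of any of these cells in the cell cycle values was not tested.

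**Figure D4:**
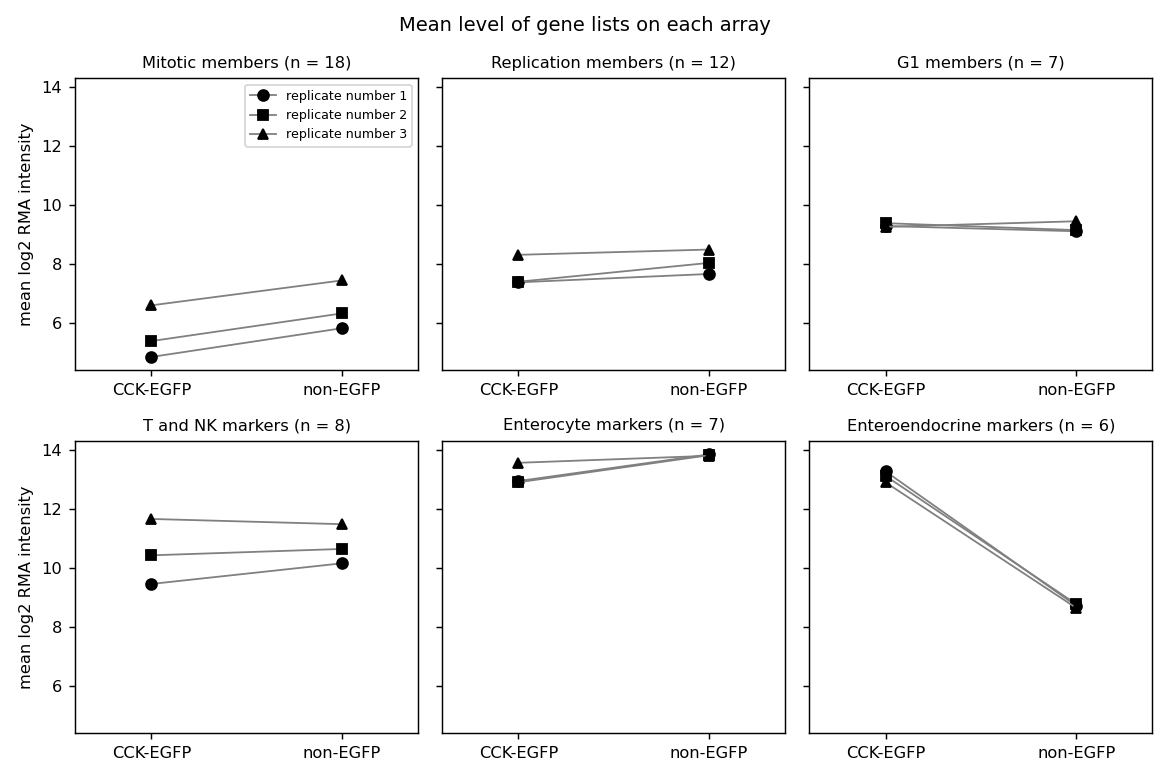
Mean log2 RMA intensity (y axis) of 6 gene lists on each array, CCK-EGFP at left and non-EGFP at right, with a line joining arrays of the same replicate number. Mitotic genes and T and NK markers are highest on replicate 3 in both groups, and the mitotic lines slope alike, while the enteroendocrine lines lie close together.

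Other genes of the pathway were described from a list of 98, of which 96 had values and are described here. In CCK-EGFP cells 5 were higher (5.21%, against 14.0% of all genes) and 10 lower (10.4%, against 10.2%), and 81 did not pass. The share of lower calls was thus near that of all genes. With the block 6 were higher and 15 lower (15.6%, against 8.43% of all genes). Their median difference was -0.31. The median of the 31 measured origin and fork genes was -0.09, and that of the 35 mitosis and cytokinesis genes was -0.45.

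Of 10 further G1 genes, 2 rose and 3 fell, in all 5 of 10 against 24.1% of all genes. Cdk4, the kinase partner of D cyclins, read 10.49, 10.86 and 10.38 in CCK-EGFP cells, against 7.12, 8.49 and 9.19 in non-EGFP cells. The groups did not overlap, and the difference was 2.31 (SE 0.51, limma adjusted p = 0.0229). Ccnd3, cyclin D3, read 9.37, 9.88 and 9.27 in CCK-EGFP cells, against 7.59, 8.16 and 8.15 in non-EGFP cells, a difference of 1.54 (limma adjusted p = 0.00971). Among the D cyclins, Ccnd2 and Ccnd3 rose, as did their kinase Cdk4. Ccnd1 went the other way, with a difference of -1.09 that passed only with the block (limma adjusted p = 0.0241). The probe sets of Ccnd3 ranged from -0.00 to 1.58. Ccng2, an atypical cyclin linked to cell cycle exit, fell by 1.16 (limma adjusted p = 0.0236). Cdkn2b, the Cdk4 inhibitor p15, fell by 0.80 (limma adjusted p = 0.0262). Cdkn2a, of the same locus and named after its value was seen, was at least 1.07-fold lower, its CCK-EGFP mean lying under the background level (limma adjusted p = 0.0343, and 0.057 with the block). Ccng1 (0.22, limma adjusted p = 0.477) and Cdkn1c (1.66, limma adjusted p = 0.138) did not pass.

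Of 20 measured regulators, 1 rose and 4 fell, which at 5 of 20 is near the share of 24.1% of all genes. E2f1, an activating E2F, read 4.61, 4.62 and 4.42 in CCK-EGFP cells, against 5.72, 5.69 and 5.42 in non-EGFP cells. Its CCK-EGFP mean lay under the background, so the fall is given as at least 2.01-fold (limma adjusted p = 0.0105). Mybl2, which encodes the B-Myb of the MuvB complex, was likewise at least 2.58-fold lower (limma adjusted p = 0.045). Foxm1, the forkhead factor of mitotic genes, chosen after its value was seen, fell by 1.04, with 5.42, 5.44 and 5.22 in CCK-EGFP cells, against 6.55, 6.13 and 6.52 in non-EGFP cells (limma adjusted p = 0.0147). Unlike most mitotic genes, E2f1 and Foxm1 were not at their highest on CCK-EGFP replicate 3. That was the usual case, since 6038 of all 18193 genes were highest there. Rbl1, which encodes p107, fell by 1.28 (limma adjusted p = 0.0143), and E2f6, a repressive E2F, rose by 1.27 (limma adjusted p = 0.0294). Btg1 (0.01) and Gadd45a (0.33) did not pass (limma adjusted p = 0.984 and 0.364).

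Of 31 measured origin and fork genes, only Rrm2b passed, and it rose (3.23% called, against 24.1% of all genes). It encodes the p53-induced subunit of ribonucleotide reductase, which also serves resting cells, and read 11.05, 11.29 and 10.50 in CCK-EGFP cells, against 9.20, 9.41 and 9.05 in non-EGFP cells (difference 1.73, limma adjusted p = 0.00622). Fen1 (0.46) and Rpa1 (0.85) did not pass without the block (limma adjusted p = 0.461 and 0.159), and Rpa1 passed with it (0.0465).

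Of 35 mitosis and cytokinesis genes, 1 rose and 3 fell (11.4%, against 24.1% of all genes). Ect2, the exchange factor that starts the cleavage furrow, read 5.82, 5.72 and 7.33 in CCK-EGFP cells, against 8.54, 8.50 and 8.96 in non-EGFP cells, and fell by 2.38 (limma adjusted p = 0.0142). Ncapg, a condensin subunit, fell by 1.43 (limma adjusted p = 0.0455), and Cks2, a small Cdk-binding protein, by 1.41 (limma adjusted p = 0.022). Bub3, a checkpoint protein, rose by 0.87 (limma adjusted p = 0.0343, and 0.0553 with the block). Pttg1 (-1.02), which encodes securin, and Incenp (-0.80), of the passenger complex, did not pass (limma adjusted p = 0.346 and 0.184). The calls of Ccnd3, E2f1 and Rrm2b held with any 1 array left out. Those of Ect2, Foxm1 and Rbl1 ended without CCK-EGFP replicate 1 or 2 (limma adjusted p = 0.0521 to 0.0557), and that of Cdk4 without those or non-EGFP replicate 2 (up to 0.0863). The remaining calls were less secure. Cdkn2b and Cks2 lost theirs without any array but CCK-EGFP replicate 3, Mybl2 without any but non-EGFP replicate 1, E2f6 without any but non-EGFP replicate 2 and Cdkn2a without any but non-EGFP replicate 3. That of Bub3 ended without any but CCK-EGFP replicate 3 and non-EGFP replicate 2, of Ccng2 without any but CCK-EGFP replicate 1 and non-EGFP replicate 3, and of Ncapg without any but CCK-EGFP replicates 2 and 3. The limma adjusted p of these 8 genes reached 0.134. With probe sets averaged per gene, limma adjusted p was 0.103 for Rbl1, 0.093 for E2f1, 0.0704 for E2f6 and 0.0947 for Bub3. Median centring ended the calls of E2f6 (0.0564) and Bub3 (0.0953), a second quantile normalization those of E2f6 (0.0509) and Ncapg (0.054), and array weights that of Ncapg (0.0727).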

How the data were processed

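Per the labels' protocols, intestinal cells were dissociated with enzymes and sorted, and picogram amounts of total RNA were amplified and biotin-labelled. Values of 45101 probe sets were deposited in 1 table and taken as log2, since per the submitters' processing notes they come from RMA (no version stated there). RMA is meant to even out array distributions, which can reduce broad shifts, and gives no detection call. The medians of the deposited arrays still differed, at 5.66 to 5.72 for CCK-EGFP, against 5.37 to 5.55 for non-EGFP. Gene names came from the platform annotation, in which 34945 probe sets had 1 symbol, 932 had several and 9160 were unnamed.

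The test was two-sided, with limma 3.58.1 (lmFit, eBayes) run in R 4.3.3 over 18193 genes at a Benjamini-Hochberg threshold of 0.05, and was tested on simulated data. The number of arrays limits the precision. Where 1 group's mean lay under the background level, a called fold was computed against that level. Alternatives were the replicate block, 2 filters on dim genes, array weights, eBayes with trend and robust options, the mean of a gene's probe sets, median centring, a second quantile normalization, and leaving out each array. Over all genes the deviations of same-number arrays correlated above 0.1 in each of the 3 pairs, so the numbers were judged to pair the samples. Those of other pairs correlated at -0.245 to -0.0109. These add no separate evidence, because deviations from a group mean cancel within the group. The calls led with use no block, since the labels do not say what a number marks, and so leave this pairing out. Blocked calls are given beside them, and the share of members called differed between the 2 fits. The members, lists, naming rule and tests were chosen with earlier results of these data known. All measured members are named, and from each other list the 4 called genes that differed most and the 2 uncalled genes with the highest means. Python 3.11.15, numpy 2.4.6, pandas 2.3.3 and matplotlib 3.10.9 made tables and figures.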

Additional observations from a re-analysis of the deposited data

How the results depend on the processing

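The counts of members and of all genes depended on the arrays used, with 3 arrays a group and RNA amplified from picograms. Without the block 1 member was higher and 2 were lower. The lower count was 8 with the replicate block, 4 with each array centred on its median and 6 after a second quantile normalization. Leaving out 1 array gave 0 to 2 higher and 0 to 5 lower members, with 0 lower without CCK-EGFP replicate 1 or 2. Lower calls over all genes also dropped there, from 1851 to 666 without CCK-EGFP replicate 1 and 505 without CCK-EGFP replicate 2. In alternatives chosen after seeing the data, the replicate block with median centring gave 12 lower members, and 3557 lower over all genes. The replicate block without both arrays of number 1, 2 or 3 gave 1, 0 and 7 lower and 0, 0 and 1 higher members. Over all genes these fits gave 254, 54 and 1221 lower and 1196, 723 and 2101 higher. The median difference of the members, -0.64, was -0.90 with median centring, with or without the block, -1.05 after the second quantile normalization and -0.94 to -0.18 with 1 array left out. Of the other cell cycle genes, 5 were higher and 10 lower. The higher count was 8 with array weights, 3 with median centring, 2 to 10 with 1 array left out and 0 to 7 with the replicate block without 1 number. The lower count was 17 with median centring, 19 after the second quantile normalization, 2 to 10 with 1 array left out, 24 with block and centring, and 0, 0 and 5 with the block without number 1, 2 or 3. Over all genes, 2540 were higher and 1851 lower, against 2101 higher and 3605 lower with median centring, which moved the median of all genes to -0.42, and 2117 and 2588 after the second quantile normalization. The causes were not tested. Differences of genes that did not pass changed sign. With median centring, with and without the block, they were -0.16 (Cdkn1b), -0.23 (Mcm5), -0.0081 (Mcm7), -0.23 (Pcna), -0.20 (Rrm2), -0.23 (Plk1), -0.033 (Ccng1), -0.25 (Btg1). After the second quantile normalization they were -0.15 (Cdk2), -0.29 (Mcm5), -0.10 (Rrm1), -0.29 (Rrm2), -0.41 (Plk1). With array weights they were -0.62 (Mcm5), -0.019 (Pcna). With the mean of all probe sets they were -0.34 (Mcm5), -0.54 (Rrm2), -0.58 (Ccng1), -0.44 (Btg1). With 1 array left out the ranges were -1.0 to 0.041 (Aurka), -1.26 to 0.027 (Aurkb), -0.11 to 0.14 (Btg1), -1.11 to 0.17 (Cdk1), -0.032 to 0.17 (Cdkn1b), -1.12 to 0.15 (Cenpe), -1.46 to 0.0076 (Cenpf), -0.011 to 0.87 (Fen1), -0.66 to 0.10 (Mcm4), -1.23 to 0.75 (Mcm5), -0.89 to 0.70 (Mki67), -0.12 to 0.15 (Pcna), -0.32 to 0.44 (Plk1), -0.41 to 0.84 (Rrm2), -0.17 to 0.10 (Tyms). With the block and without number 1 the values that changed sign were 0.071 (Cdk1), -0.81 (Mcm5), 0.063 (Tyms), -0.11 (Plk1). With the block and without number 2 the values that changed sign were 0.093 (Tyms), -0.33 (Rrm2), -0.16 (Plk1), 0.040 (Tpx2), 0.33 (Mki67), -0.063 (Btg1), -0.012 (Fen1). With the block and without number 3 the values that changed sign were -0.042 (Mcm7), -0.021 (Pcna), 0.0041 (Cenpe), 0.20 (Mki67).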

Other observations

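Markers of the crypt base, where the dividing stem cells of the intestine reside, were also measured. Their mean over 8 genes was 7.07, 6.58 and 7.29 on the CCK-EGFP arrays, against 5.77, 6.26 and 7.09 on the non-EGFP arrays. Of the 8, 2 rose (against 14.0% of all genes) and 1 fell (against 10.2%) in CCK-EGFP cells. Differences were positive for 4 and negative for 4, so the list had no common direction. The 3 called genes were named after their values were seen. Rgmb, a bone morphogenetic protein co-receptor, read 9.21, 9.39 and 8.89 in CCK-EGFP cells, against 7.10, 7.06 and 6.98 in non-EGFP cells (difference 2.12, limma adjusted p = 0.00118). Axin2, a feedback target of Wnt signalling, read 10.22, 10.28 and 10.29 in CCK-EGFP cells, against 8.46, 8.14 and 9.0 in non-EGFP cells (difference 1.73, limma adjusted p = 0.00608). In both genes the groups did not overlap and differed by over 1 log2 unit between the closest arrays.

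Cdca7, a gene associated with the cell cycle, read 4.94, 4.52 and 5.80 in CCK-EGFP cells, against 6.03, 7.17 and 6.96 in non-EGFP cells, and fell by 1.64 (limma adjusted p = 0.0389). Lgr5, the receptor that defines crypt base stem cells, was below the background level on all 6 arrays, with 4.29, 3.22 and 3.43 in CCK-EGFP cells and 4.51, 3.49 and 3.20 in non-EGFP cells. Olfm4, another stem cell marker, read 6.43, 5.08 and 9.06 in CCK-EGFP cells, against 5.52, 6.13 and 10.19 in non-EGFP cells. As for most mitotic genes, replicate 3 was the highest in both groups.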
